A study of Mus musculus with 4 samples.

Results

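The pre-B cell receptor is the first antigen receptor that a developing B cell puts on its surface. A newly made immunoglobulin mu heavy chain pairs there with the surrogate light chain, which is built from VpreB (genes Vpreb1 and Vpreb2) and lambda5 (gene Igll1), before a conventional light chain exists. The CD79A and CD79B chains carry the signal into the cell, the kinase SYK binds them once they are phosphorylated, and the adaptor BLNK links SYK to the enzymes below it. The genes described here are these 7 and Vpreb3, whose product is a VpreB-like protein of B-cell precursors, 8 in all of 51912 Ensembl genes measured. They were picked by symbol, and the pick was made with their knockout against wild-type values already known. Those values are therefore given as a description, and a pass of the gene test adds no support.

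Expression was measured by RNA sequencing in LT-HSCs, the long-term stem cells of mouse blood, sorted as LSK CD34- FLk2- cells. Wild-type (WT) animals gave 2 libraries and Fam122a knockout (KO) animals 2, each from cells mixed from 3 C57BL/6 animals of 8 to 12 weeks. The labels give no further allele, Cre driver or treatment, and the series asks which genes Fam122a regulates in these cells. Values are FPKM, fragments per kilobase of gene scaled by library size, a unit read from the values and not stated by the authors.

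Fam122a itself was at 18.4 and 7.46 FPKM in WT replicates 1 and 2 and was listed at 0 in both KO libraries. The steps between low values implied about 4240000 and 2520000 fragments in the WT libraries and 6840000 and 5960000 in the KO libraries. WT replicate 2 stood apart: over 18214 genes its log2 values had a Pearson correlation of 0.131 with WT replicate 1 and of -0.165 and -0.163 with the KO libraries, against 0.967 between the KO libraries. Unannotated assembled loci held 53.9% of its summed FPKM. They held 9.14% in WT replicate 1, and 1.74% and 1.81% in KO replicates 1 and 2. WT replicate 2 is therefore shown separately, and KO was compared with WT replicate 1. The share of these loci thus also differed between WT replicate 1 and KO, and its part in the comparison was not tested. The spread in that comparison comes from the KO pair, drawn by the fit towards that of other genes. It is lent to WT, which has no replicate check there. Of the transcripts of the sort gate, Ly6a was at 201 FPKM in WT replicate 1 and at 230 (229.9) and 205 FPKM in KO, and Kit at 81.7, 93.5 and 129 FPKM. Cd34, which the gate excludes at the cell surface, was at 179, 87.7 and 62.1 FPKM.

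All 8 genes were higher in both KO libraries than in WT replicate 1, by a fitted log2 difference of 0.86 for Syk to 4.27 for Vpreb2. Both KO libraries were above WT replicate 1 in 48.5% of all 13848 genes tested, and at least 2-fold above it, on log2(FPKM + 1), in 6.09% of them and in 7 of the 8. The filter, 1 FPKM or more in at least 2 libraries, kept genes at that level in KO only and dropped those at it in WT replicate 1 only. These shares therefore lean towards KO. The median difference was 2.78 over the 8 and 0.12 over all genes tested. Vpreb2, Vpreb1 and Igll1 differed by the most of the 8, then Blnk, Cd79a, Vpreb3 and Cd79b, and Syk by the least. In bulk RNA, fewer cells of a type and less RNA per cell cannot be told apart. In WT replicate 2, the library that stood apart, each of the 8 was lower than in any of the other 3 libraries. The share of all genes lowest in that library was not counted, so this cannot be read as a trait of the 8.

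**Figure D1:**
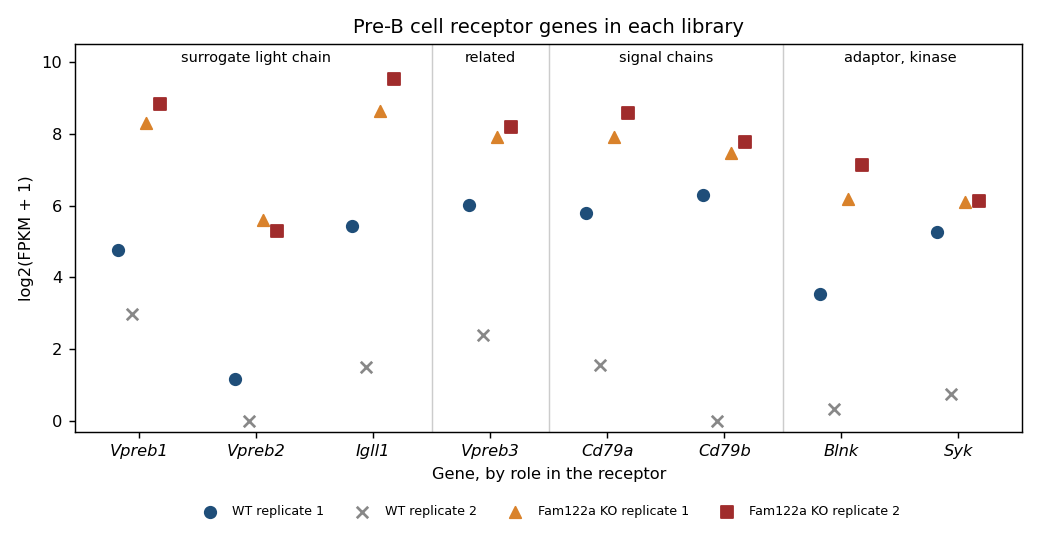
Level of each of the 8 genes as log2(FPKM + 1) in the 4 libraries (1 point a library), grouped by role. Both KO libraries lie above WT replicate 1 for every gene, and WT replicate 2 lies lowest for every gene.

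Igll1 and Vpreb1 had the highest levels of the 8 genes in both KO libraries, while Cd79b, Vpreb3 and Cd79a had the highest levels in WT replicate 1. Igll1 (ENSMUSG00000075370, GRCm38 chr16:16860671-16863985, minus strand) was at 42.0 and 1.81 FPKM in WT replicates 1 and 2, and at 399.6 and 732 FPKM in KO replicates 1 and 2. By level it ranked 2784th among coding genes in WT replicate 1, and 199th and 87th in the KO libraries. Its fitted log2 difference between KO and WT replicate 1 was 3.65 (SE 0.41). Vpreb1 (ENSMUSG00000059305, chr16:16868403-16870843, minus strand), which lies beside Igll1, was at 26.0 and 6.94 FPKM in WT and at 317 and 451 FPKM in KO, a difference of 3.81 (SE 0.27). Both KO libraries were above both WT libraries for each of the 2 genes, as they were in 30.8% of all 18214 genes tested with 4 libraries. KO replicate 2 was the higher of the KO pair for both genes.

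Compared with Vpreb1, Vpreb2 was much scarcer in each library. This gene (ENSMUSG00000059280, chr16:17980428-17981273, plus strand) was at 1.25 FPKM in WT replicate 1, was listed at 0 in WT replicate 2, and was at 47.8 and 37.9 FPKM in KO. The WT replicate 1 value corresponds to an estimated 2.7 fragments, so its ratio is loose: KO replicate 1 was 38.2-fold above WT replicate 1 (exact binomial 95% interval 11.6 to 168, counting error only), and KO replicate 2 was 30.3-fold above it (9.10 to 134). The fitted log2 difference was 4.27 (SE 0.27), and this SE comes from the spread of the KO pair, drawn by the fit towards that of other genes. Vpreb2 was the only one of the 8 genes that was lower in KO replicate 2 than in KO replicate 1.

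Vpreb1 and Vpreb2 are near-identical copies, and how the authors assigned reads that match both is not given in the sources used here. Their coding sequences are 429 bases each and differ at 9 of them, an identity of 97.9%. Of all 50-base windows of the Vpreb2 transcript, 32.8% also occur in the Vpreb1 transcript, so a part of the fragments cannot place the gene. The stretch of 90 coding bases with the most differences, read in the sense of the gene with the 5 differing bases in capitals, shows what a read must cover to tell them apart (GENCODE M21, GRCm38 chr16:16868638-16868727, minus strand, for Vpreb1, and chr16:17980949-17981038, plus strand, for Vpreb2).
Vpreb1: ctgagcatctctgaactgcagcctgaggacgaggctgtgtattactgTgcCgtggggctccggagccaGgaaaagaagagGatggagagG
Vpreb2: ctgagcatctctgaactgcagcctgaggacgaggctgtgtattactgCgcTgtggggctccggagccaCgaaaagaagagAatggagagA
Summed, the pair was at 27.3 FPKM in WT replicate 1 and at 365 and 489 FPKM in KO, a log2 difference of 3.90. If each shared read was counted once, which is not known, the sum hardly depends on how such reads were split between these copies. Vpreb2 made up 4.59% of this sum in WT replicate 1, and 13.1% and 7.75% in the KO libraries.

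Vpreb3, on another chromosome, differed less. It (ENSMUSG00000000903, chr10:75943057-75949657, plus strand) was at 64.1 and 4.27 FPKM in WT and at 241 and 288 FPKM in KO. The fitted log2 difference was 2.02 (SE 0.18). In WT replicate 1 it was the most abundant of the 4 VpreB and lambda5 genes, and in both KO libraries Igll1 and Vpreb1 were above it.

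The CD79 signal chains, which B cells keep from the precursor to the mature stage, were already well expressed in WT replicate 1. Cd79a (ENSMUSG00000003379, chr7:24897381-24902197, plus strand) was at 54.4 and 1.92 FPKM in WT and at 239 and 384 FPKM in KO, a difference of 2.46 (SE 0.34). Cd79b (ENSMUSG00000040592, chr11:106311341-106314762, minus strand) was at 76.9 FPKM in WT replicate 1, was listed at 0 in WT replicate 2, and was at 177 and 216 FPKM in KO, a difference of 1.33 (SE 0.19). The 2 chains work as a pair, yet their order turned: Cd79b was the higher per length in WT replicate 1, and Cd79a in both KO libraries.

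Blnk and Syk, which act together below the receptor, stood at opposite ends of the signalling genes. Blnk (ENSMUSG00000061132, chr19:40928927-40994535, minus strand) was at 10.6 and 0.27 FPKM in WT and at 71.1 and 138 FPKM in KO, a difference of 3.11 (SE 0.45). Syk (ENSMUSG00000021457, chr13:52583173-52648792, plus strand), a kinase that myeloid cells also use, was at 37.3 and 0.67 FPKM in WT and at 68.0 and 68.7 FPKM in KO, a difference of 0.86 (SE 0.16). Syk was thus above Blnk in WT replicate 1, close to it in KO replicate 1 and below it in KO replicate 2. Both lie in long genes, with spans of 10.95 and 7.01 times their exonic length, and neither carried signal above 1 FPKM in WT replicate 2.

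**Figure D2:**
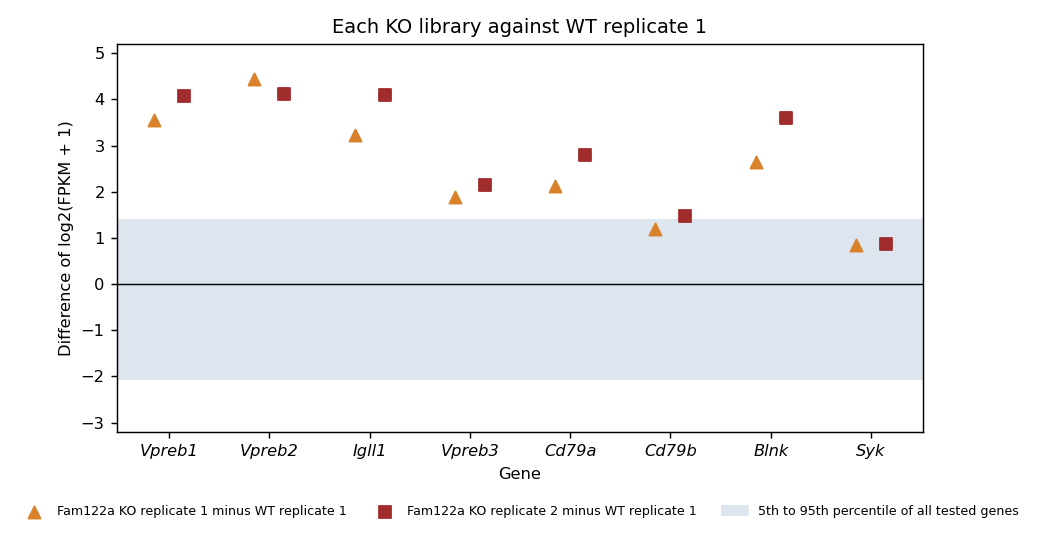
Difference of log2(FPKM + 1) between each KO library and WT replicate 1 for the 8 genes, with a band from the lowest 5th to the highest 95th percentile of all 13848 tested genes in the 2 comparisons (-2.05 to 1.39). Vpreb1, Vpreb2, Igll1, Vpreb3, Cd79a and Blnk lie above the band in both libraries, Cd79b only in KO replicate 2, and Syk within it.

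By limma with Benjamini-Hochberg adjustment over all genes tested, Vpreb1, Vpreb2 and Vpreb3 passed an adjusted p of 0.05 (0.0420, 0.0420 and 0.0458), 3 of the 8 against 0.181% of all genes called higher in KO. Igll1, Cd79a, Cd79b, Blnk and Syk did not, with adjusted p values from the same limma test of 0.0540 to 0.0867. These calls hang on the scaling of the libraries. Across all genes 25 were called higher and 196 lower as deposited, and 1183 higher and 571 lower once the libraries were scaled to equal Ensembl totals, which moved the median of all genes up by 0.21 on the log2 scale. All 8 passed after that scaling (limma adjusted p 0.0203 to 0.0372), against 8.49% of all genes called higher. None of the 8 passed with a pseudocount of 0.1, without the intensity trend or with a filter at 5 FPKM. With all 4 libraries, limma called 0 of 18214 genes in either direction, with an unadjusted p under 0.05 for 233 higher and 3837 lower genes, 5 of the 8 among the higher. The groups did not overlap for any of the 8 there, against 30.8% of all genes with both KO libraries above both WT libraries. Beside these values, the neutrophil markers fixed as a list summed to 175670 FPKM in WT replicate 1 and to 76818 and 66780 FPKM in KO, all 9 lower in both KO libraries with 0 past the test. FPKM are shares of a library, and the part of these genes in the calls was not tested. With S100a8, S100a9 and 3 globin genes left out of the totals, the log2 differences of the 8 genes ran from 0.98 for Syk to 4.36 for Vpreb2.

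The KO libraries also differed from each other in these genes. KO replicate 2 was above KO replicate 1 in 7 of the 8, against 7308 of all 13848 genes tested. On log2(FPKM + 1) Blnk, Igll1 and Cd79a were at least 1.5-fold above, 3 of 8 against 10.4% of all genes. The ratio of FPKM was 1.94 for Blnk, 1.83 for Igll1, 1.61 for Cd79a and 1.42 for Vpreb1. It was 1.22 for Cd79b, 1.20 for Vpreb3, 1.01 for Syk and 0.793 for Vpreb2, and none of the 8 was 1.5-fold lower, against 7.12% of all genes. With 1 library on each side this has no replicate check. The markers of pro-B and pre-B cells went the same way, with all 13 tested higher in KO replicate 2 (median log2 difference 0.77, against 0.02 over all genes tested). So did all 8 erythroid markers (median 0.64), while 2 of the 9 tested immature and mature B markers did.

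Ratios between genes of the same library do not depend on how libraries are scaled, and they too differed between WT replicate 1 and the KO libraries. The pair Vpreb1 and Vpreb2 stood at 0.501 of the Cd79a level in WT replicate 1, and at 1.53 and 1.27 times that level in KO. Igll1 stood at 0.772 of Cd79a in WT replicate 1, and at 1.67 and 1.90 times Cd79a in KO. Vpreb3 went the other way, from 1.18 times Cd79a to 1.01 and 0.750. Within the surrogate light chain, the ratio of the Vpreb1 and Vpreb2 sum to Igll1 was 0.649 in WT replicate 1 and 0.912 and 0.668 in KO, so KO replicate 2 lay close to WT replicate 1. None of these ratios was tested.

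**Figure D3:**
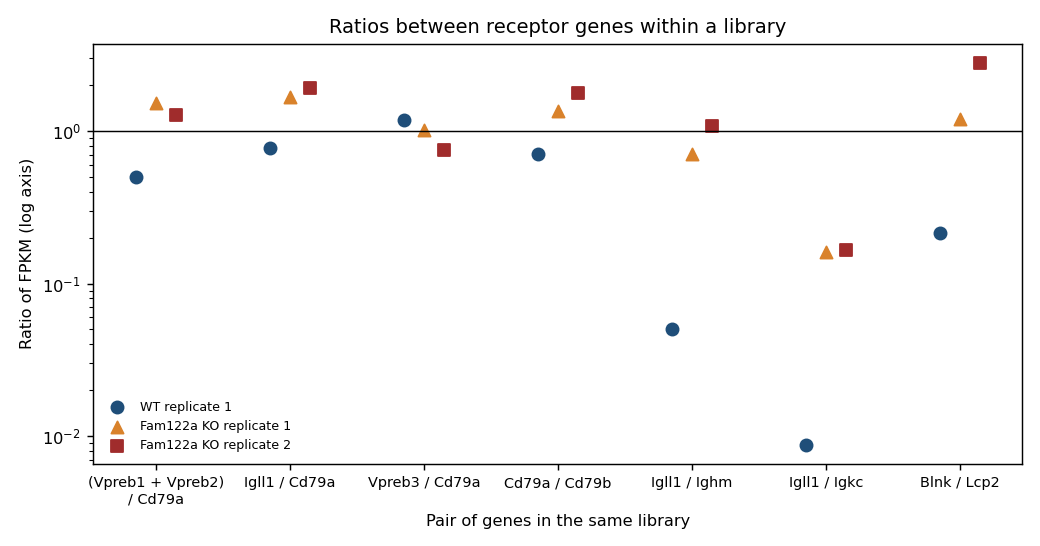
Ratio of FPKM between genes of the same library on a log axis, for WT replicate 1 and both KO libraries. Igll1 per Igkc and per Ighm are the pairs that differ by most between WT replicate 1 and KO, and Vpreb3 per Cd79a is the pair that is lower in KO.

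The partners of the surrogate light chain did not follow it. Ighm, the mu heavy chain it pairs with, was at 837 FPKM in WT replicate 1 and at 564 and 679 FPKM in KO. Igkc, the kappa light chain that replaces it in maturing cells, was at 4768 FPKM in WT replicate 1 and at 2498 and 4413 FPKM in KO. Igll1 thus stood at 0.0502 of the Ighm level in WT replicate 1 and at 0.709 and 1.08 of it in KO, and at 0.00881, 0.160 and 0.166 of the Igkc level. The lambda constant genes Iglc1 and Iglc2 were at 31.8 and 248 FPKM in WT replicate 1, at 85.1 and 300.5 FPKM in KO replicate 1 and at 39.2 and 131 FPKM in KO replicate 2. Iglc3, named here after its values were seen, was at 32.1 FPKM in WT replicate 1 and listed at 0 in both KO libraries, and the filter left it out of the test. Of the 5 tested genes of this list, 0 passed the limma test in either direction (median difference -0.32), and 0 after scaling to equal totals. The lambda genes are close copies of each other, so their split is uncertain.

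Among 25 tested kinases, coreceptors and adaptors next to the receptor, 0 were called higher and 1 lower (median difference 0.51, against 0.12 over all genes). The lower one was Bank1, a scaffold of B-cell signalling, which was at 71.0 FPKM in WT replicate 1, at 122 FPKM in WT replicate 2, and at 7.78 and 5.73 FPKM in the KO libraries (difference -3.23, SE 0.28, limma adjusted p = 0.0455). The 4 most abundant genes of the list did not pass as deposited: Cd81, a tetraspanin of the B-cell surface, was at 193, 180.3 and 226 FPKM in WT replicate 1 and the KO libraries, and Lyn, a kinase that phosphorylates the CD79 chains, at 96.1, 102 and 72.3 FPKM. Dapp1, an adaptor, was at 100.4, 105 and 90.1 FPKM, and Vav1, an exchange factor, at 80.8, 139 and 138 FPKM. The log2 difference of Vav1 was 0.77 (SE 0.15), with a limma adjusted p of 0.0887 as deposited and 0.0367 after scaling to equal totals. Lcp2, the relative of Blnk used in T and myeloid cells and chosen after its values were seen, was at 49.7, 59.1 and 49.6 FPKM, so that Blnk stood at 0.213 of it in WT replicate 1 and at 1.20 and 2.78 times it in KO. After scaling to equal totals 8 of the 25 were called higher and 2 lower, against 8.49% and 4.1% of all genes.

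Among 16 brakes on receptor signalling, 0 passed in either direction (median 0.49), and 4 were called higher after scaling to equal totals, against 8.49% of all genes. Inpp5d, the SHIP1 phosphatase, was at 50.8 FPKM in WT replicate 1 and at 137 and 136 FPKM in KO (1.41, SE 0.15, limma adjusted p = 0.0502). Ptpn6, the SHP-1 phosphatase, was at 204, 277 and 232 FPKM, Pirb, an inhibitory receptor, at 268, 298 and 308 FPKM, and Ptprc, the CD45 phosphatase, at 124, 136 and 128 FPKM.

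Of 22 transcription factors known to act on or below the receptor, 0 passed as deposited and 10 were called higher after scaling to equal totals, against 8.49% of all genes. In both KO libraries 19 of the 22 were above WT replicate 1, against 48.5% of all genes (median 0.99). Tcf3, which encodes the E2A proteins that bind E-box sequences of B-lineage genes, was at 35.2 FPKM in WT replicate 1 and at 114 and 180 (179.5) FPKM in KO (1.99, SE 0.32). Spi1, the PU.1 factor of myeloid and B cells, was at 169, 247 and 190 (189.8) FPKM, Myb at 63.3, 115 and 118 FPKM, and Myc at 82.3, 92.8 and 98.5 FPKM. Ebf1 and Pax5, chosen after their values were seen, act together on several of the 8 genes in B-cell precursors. Ebf1 was at 2.1, 23.9 and 41.5 FPKM, and Pax5 at 3.14, 3.27 and 4.62 FPKM.

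**Figure D4:**
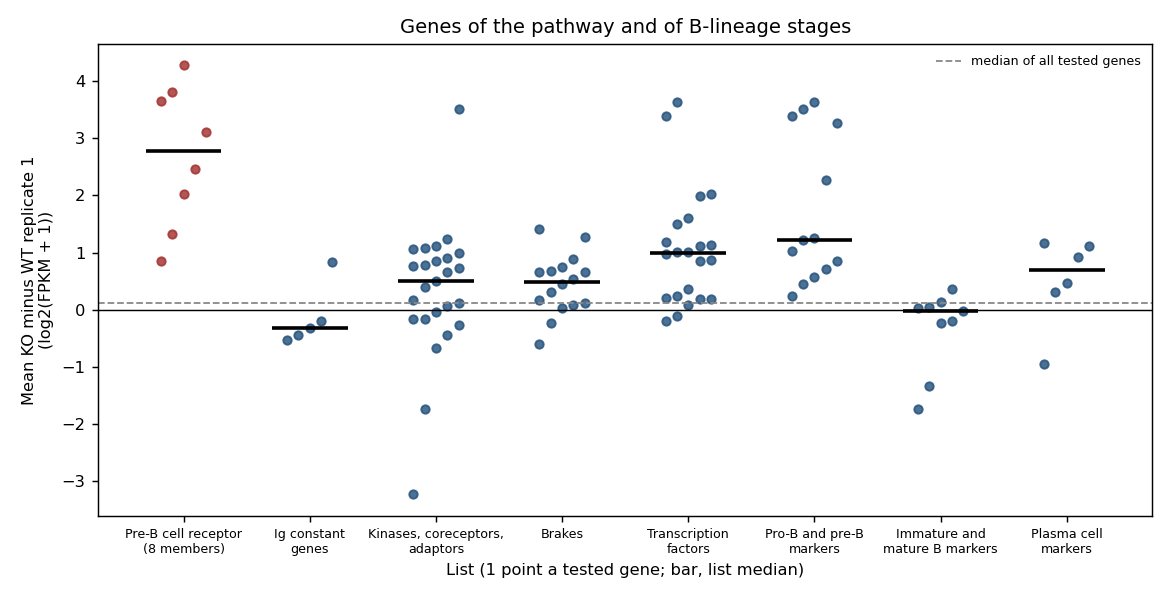
Mean KO minus WT replicate 1 of log2(FPKM + 1) for each tested gene of the pathway lists and of markers of B-lineage stages (1 point a gene, bar at the list median, dashed line at the median of all tested genes). The 8 receptor genes have a median of 2.78, the pro-B and pre-B markers 1.22, the immature and mature B markers -0.03 and the immunoglobulin constant genes -0.32, without the genes that the filter on low values left out.

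Markers of B-cell precursors were higher in KO beside the receptor genes. The pro-B and pre-B list summed to 105 FPKM in WT replicate 1 and to 349 and 588 FPKM in KO. All 14 were above WT replicate 1 in both KO libraries, with 13 of them tested, against 48.5% of all genes tested. Some differed little: Il2ra, which the filter left out, was at 0.62, 0.67 and 1.09 FPKM, and Pax5 at 3.14, 3.27 and 4.62 FPKM. Of the 13 tested, 0 passed as deposited and 6 were called higher after scaling to equal totals, against 8.49% of all genes. Some of its 14 genes, Ebf1, Lef1 and Pax5 among them, also stand in the pathway lists, and none of the 14 was listed at 0 in these 3 libraries. Of 8 erythroid markers, 7 were likewise above WT replicate 1 in both KO libraries and 0 were below it in both. Markers of immature and mature B cells summed to 500.4 FPKM in WT replicate 1 and to 559 and 498 FPKM in KO. Most of each sum was Cd74 (295 FPKM in WT replicate 1, 324 and 285 FPKM in KO) and Cd37 (143, 190.1 and 181 FPKM). Of all 12 measured, 1 was above WT replicate 1 in both KO libraries and 6 were below. The filter on low values left out 3 of those 6: Cxcr5 was at 11.1 FPKM in WT replicate 1 and at 0.25 and 0.43 FPKM in KO, Cr2 at 2.72, 0.30 and 0.21 FPKM, and Fcer2a at 1.33, 0.59 and 0.17 FPKM. In WT replicate 2, the library that stood apart, Cxcr5 was at 44.2 FPKM, Cr2 at 25.3 FPKM and Fcer2a at 0.79 FPKM. Cxcr5 and Cr2 were thus highest in that library. Ms4a1, the CD20 gene and chosen after its values were seen, was at 7.06 and 2.57 FPKM in WT replicates 1 and 2 and at 2.12 and 0.89 FPKM in KO. Plasma cell markers summed to 644 FPKM in WT replicate 1 and to 403 and 515 FPKM in KO, with 6 of all 8 above WT replicate 1 in both KO libraries and 2 below. Jchain, 1 of the 2 below, held most of each sum, at 482 FPKM in WT replicate 1 and at 213 and 289 FPKM in KO. The other, Prdm1, a regulator of plasma cell formation, was at 22.7 FPKM in WT replicate 1 and at 0.96 and 0.87 FPKM in KO. It was highest in WT replicate 2, at 35.2 FPKM, and the filter left it out of the test. Markers of plasmacytoid dendritic cells, which also use several B-lineage genes, summed to 321, 279 and 334 FPKM. The part of each cell type in the values of the 8 genes was not tested.

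The genes with the pattern most like the receptor genes, by Euclidean distance of log2(FPKM + 1) over the 4 libraries among 13467 other coding genes, were in part other members. For Igll1 they were Cd79a (distance 1.24), the eosinophil peroxidase gene Epx (1.47) and Chchd10 (1.67), and for Vpreb1 Chchd10 (1.49), Vpreb3 (1.59) and Igll1 (1.82). For Cd79a they were the red-cell anion exchanger gene Slc4a1 (0.583), Chchd10 (0.795) and Vpreb3 (0.975). Among the genes nearest to Blnk were Cnn3 (0.892) and Dntt, which adds bases at antigen receptor joints (0.911). Syk was nearest to Lrp10 (0.140), Klf2 (0.212) and Josd2 (0.251). Genes of eosinophils and red cells thus came as near as genes of the B lineage.

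Promoter sequences show what the genes share upstream. RefSeq (GRCm38.p6) promoter windows were found for 7 of the 8 genes, 8 windows in all since Syk has 2, and Cd79b had none. The 250 bases before each start were searched on both strands for short motifs of B-lineage factors, picked with these windows in view: CAGGTG, an E-box of E proteins, CAGCTG, another E-box, ATTTGCAT, the octamer, CCCNNGGG, the core of the EBF site, and CAGGAAGT, an ETS site. The CAGGTG E-box was in 7 of the 8 windows, belonging to 6 genes, and in 17.2% of all 32851 promoters. The octamer was in the windows of Vpreb3 and Blnk and in 1.60% of all promoters. The ETS site was in those of Vpreb3, Cd79a and Blnk (2.69% of all promoters), CAGCTG in those of Vpreb2 and Igll1 (13.0%), and the EBF core in that of Igll1 (11.8%). A match is a description of these letters and not a bound site.

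The stretches around these matches are shown 5′ to 3′ in the sense of the gene, with the E-box or the octamer in capitals. They come from chr16:16869326-16869355 (minus strand, Vpreb1), chr16:17980321-17980350 (plus, Vpreb2), chr7:24897331-24897360 (plus, Cd79a), chr16:16863986-16864135 (minus, Igll1), chr10:75948150-75948299 (plus, Vpreb3) and chr19:40994333-40994362 (minus, Blnk).
Vpreb1: atgacgttccagCAGGTGcttcctcccaga
Vpreb2: atgactttccagCAGGTGcttcctcccaga
Cd79a: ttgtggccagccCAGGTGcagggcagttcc
Igll1: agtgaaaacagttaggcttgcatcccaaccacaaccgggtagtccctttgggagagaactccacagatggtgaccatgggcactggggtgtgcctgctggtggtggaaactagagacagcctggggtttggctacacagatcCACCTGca
Vpreb3: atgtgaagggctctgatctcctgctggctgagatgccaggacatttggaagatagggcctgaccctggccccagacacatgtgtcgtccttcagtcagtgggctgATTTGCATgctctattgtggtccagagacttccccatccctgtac
Blnk: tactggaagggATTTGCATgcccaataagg
The Vpreb1 and Vpreb2 stretches carry the E-box in nearly the same letters, so the likeness of these copies extends upstream of the coding part. The first base of the E-box lies at position -88 from the RefSeq start in Vpreb1, -232 in Vpreb2, -154 in Cd79a and -8 in Igll1, and that of the octamer at -45 in Vpreb3 and -130 in Blnk. These positions hang on the annotation: of the 250 bases before the RefSeq start, GENCODE counts 137 in Vpreb2 and 116 in Cd79a as exonic. GENCODE places the Vpreb1 and Blnk stretches inside exons of other transcripts of these genes. Among the matches not printed, CAGCTG in Vpreb2, the ETS sites of Cd79a and Blnk, the E-box of Blnk and that at -200 in Syk also overlap GENCODE exons.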

How the data were processed

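Per the labels' protocols, RNA of sorted cells was extracted with Trizol and the sequencing libraries came from the SMART-Seq v4 kit, a method that keeps no strand. Per the submitters' processing notes, bcl2fastq, STAR 2.7.1a, HISAT2 2.1.0 and the builds GRCm38.p5 and mm10 were used, without roles. The deposited values hold no header and were taken as FPKM from their range and steps, and the tool that made them is not given in the sources used here. Of 87703 features per file, 51912 were Ensembl genes, and 35791 MSTRG loci that name no gene stayed out of the tests. Symbols matched 51633 genes, and coordinates come from GENCODE M21 (GRCm38).

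Genes at 1 FPKM or more in at least 2 libraries were fitted as log2(FPKM + 1) with limma 3.58.1 (R 4.3.3) and an intensity trend, with an adjusted p of 0.05 as threshold, so folds of low genes are understated. The fit of both KO libraries against WT replicate 1 has 1 residual degree of freedom. Depth was estimated in single-exon genes, whose values lay within 0.1 of a whole fragment in 85.4% to 90.3% of cases, and intervals from it cover counting error only. The labels call the replicates biological. In the fit against WT replicate 1, p-values rest on the spread between the 2 KO pools, which limma draws towards that of other genes. No spread between WT pools enters that fit.

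The members and lists were chosen with earlier results of these data known. Named from each pathway list were the genes that passed and the 4 with the highest mean over WT replicate 1 and the KO libraries. For 5 of the members, the 3 coding genes nearest in pattern were named, leaving out predicted models and receptor segments. One gene that these rules name is not reported here.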

Additional observations from a re-analysis of the deposited data

How the results depend on the processing

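All 8 genes were higher in KO in each setting tried, with 89 values against WT replicate 1 and 80 with 4 libraries, all above 0. Many of these values are no separate checks. A change of filter, intensity trend or replicate block leaves the fitted difference of a gene as it was. Leaving a WT library out of the 4 repeats a fit against the other WT library. Leaving aside the swap of WT libraries, the log2 difference ran from 3.56 to 4.07 (4.065) for Vpreb1, 4.11 to 4.98 for Vpreb2, 3.22 to 4.09 for Igll1, 1.19 to 1.57 for Cd79b and 0.71 to 1.09 (1.085) for Syk. Leaving out a KO library against WT replicate 1 left no residual degree of freedom and hence no test. Between the KO libraries Syk turned sign under quantile normalization (-0.0030).

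The counts of genes called depended on the setting, and the cause was not tested. Against WT replicate 1, where 25 were higher and 196 lower, they were 761 and 9265 without a filter, 72 and 1487 with a filter at a mean of 1 FPKM, and 1183 and 571 after scaling to equal Ensembl totals. They were 0 and 0 with a filter at 5 FPKM in 2 libraries, with a pseudocount of 0.1 and without an intensity trend, and 15 higher under quantile normalization. With WT replicate 2 in place of WT replicate 1, they were 7971 and 3155. The members called were 8 after scaling and after that swap, 2 without a filter and under quantile normalization, 1 with the filter on the mean and 0 in the other 3 settings. With 4 libraries, where 0 were called, leaving out 1 library gave 0 to 7971 higher and 0 to 3155 lower genes, and 25 and 196 without WT replicate 2.

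The replicate block called 0 genes, as did the fit without it. Same-numbered libraries had deviations from their group means that correlated at 0.055. The WT deviations rest on WT replicate 2, which stood apart, so this value cannot decide whether the libraries are paired. Their numbers were not taken as pairs. The equal totals without 5 abundant genes, and the sum of Vpreb1 and Vpreb2, were added after seeing the data.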
